A study of Homo sapiens with 3 samples.

Results

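The peaks described here are the easyCLIP peaks of HA-tagged HNRNPA0 that lay at the 3' ends of protein-coding genes. A peak was taken when its centre fell in the last 1000 bp of the RefSeq interval of a protein-coding gene of at least 5 kb, on the strand of that gene and under the gene ID that the deposited list gave it, on chromosomes 1 to 22 and X (hg38). The rule used position only and no read number. It found 4556 distinct peaks of 48890 in the series, of which 1415, 1509 and 1635 came from replicates 1, 2 and 3. The lists of those replicates held 15661, 15486 and 17791 peaks.

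RNA bound to HNRNPA0 was recovered by easyCLIP, in which ultraviolet light bonds a protein to the RNA it touches and the RNA is then trimmed, purified with the protein and sequenced. Wild-type HEK293T cells, an established human embryonic kidney line, received 750 ng of vector encoding the HA-tagged protein on a 15 cm plate and were irradiated at 254 nm (0.3 J/cm2). Each replicate used about 2 mg of lysate and 22 uL of beads against the HA tag, and RNase I (0.02 U/uL, about 3 min) trimmed the RNA. The 3 replicates formed 1 group without a control library, carried their own 3' adapter barcodes and were pooled after that adapter was ligated. The labels do not say that the replicates came from separate cultures, so every SD and p-value here measures the spread between these 3 samples, which may be technical. The protein measured was the tagged one expressed from a vector, and total RNA levels were not measured, so peak height and the amount of a transcript cannot be told apart.

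HNRNPA0 is a small member of the hnRNP A/B family with a pair of RNA recognition motifs and a glycine-rich tail. Proteins of that family bind nuclear and cytoplasmic RNA, and HNRNPA0 is known for binding AU-rich elements in the 3' untranslated regions of cytokine messages. The 3' end of a protein-coding gene usually carries the last exon, most of the 3' untranslated region and the site of cleavage and polyadenylation, and proteins bound there act on stability, localisation and translation of the message. The intervals used here give only where a gene starts and ends. They take the outermost end of a gene over its RefSeq transcripts, so exons, introns, untranslated regions and earlier polyadenylation sites were not told apart.

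Sequence could be read for 3 of the peaks, because the transcribed stretch there falls inside the RefSeq promoter window of a neighbouring gene (GRCh38.p14). That gene is ADAMTSL4-AS1, on the same strand, for MCL1 and PRC1-AS1, on the opposite strand, for PRC1. They are shown as examples of the RNA under a 3'-end peak, on the minus strand of the gene and 5' to 3', with capitals for the short stretch that the peak list marks inside the peak.
MCL1, replicate 1: acaaattaatgttGGTTgtcaaatgtagtg
MCL1, replicate 3: taatgttggttgtCAAAtgtagtgtgtttc
PRC1, replicate 2: gtgtaaatggttcTCAAaagcttaccagtg
The first window, chr1:150574613-150574642, lies in a peak with a read number of 8 whose centre was 70.0 bp from the end of MCL1, an anti-apoptotic BCL2 family protein with a short-lived message. The other MCL1 window, chr1:150574607-150574636, lies in a peak with a read number of 9 at 66.0 bp from the end. Those peaks overlap, and replicate 2 had no peak in that region. The PRC1 window, chr15:90966149-90966178, lies in a peak with a read number of 4 at 124.5 bp from the end of PRC1, a microtubule-bundling protein of cytokinesis, and was found in replicate 2 only. A and T made up 70.0%, 66.7% and 60.0% of the 30 nt in the order shown. The pentamer ATTTA, the core of an AU-rich element, was searched on the strand shown and was in none of the 3 windows, which says only that these letters are absent there. Sequence at the other peaks was not analysed here.

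Peaks were more numerous in the last kilobase of genes than in any of the other kilobases counted, up to 5 kb from either end. The last 1 kb held 1520 ± 110 peaks per list (SD, n = 3), the next 1 kb inward 1350 ± 62.0, and the following ones 1137 ± 47.6, 918 ± 74.9 and 654 ± 8.39. The first 1 kb from the 5' end held 381 ± 30.0 peaks and the next 229 ± 17.9. In every replicate the last kilobase held more peaks than the one before it, by 113, 181 and 215. The exact permutation p of that difference, with the sign turned per replicate and two-sided, was 0.25. This is the smallest p that 3 replicates allow, so no paired difference here can pass 0.05.

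**Figure D1:**
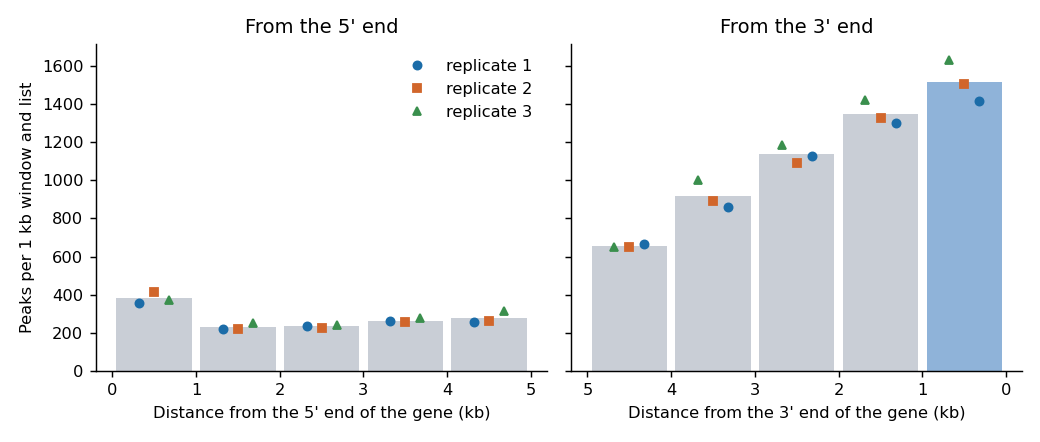
Peaks per 1 kb window and replicate in protein-coding genes of 5 kb or more, counted from the 5' end (left) and from the 3' end (right). Bars are means over the 3 replicates and points the replicates. The last 1 kb, in blue, holds 1415, 1509 and 1635 peaks, and counts fall with each kilobase inward.

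Peaks at 3' ends made up 10.2% ± 0.406 of all peaks in protein-coding genes of that length and 11.6% ± 0.345 of their summed read numbers (SD, n = 3). The read number is the last number in the name of a deposited peak. It was taken for the number of reads in that peak, although the lists do not name it. Summed over the 3'-end peaks it came to 9220, 9577 and 10534 in replicates 1, 2 and 3. Densities were taken over the length of the 5432 genes with a peak in any list, and genes without a peak were left out. On that basis 3'-end peaks lay at 0.280 ± 0.0203 per kb of last kilobase. Other peaks lay at 0.0261 ± 0.00200 per kb of the remaining gene, a ratio of 10.7 ± 0.476 (SD, n = 3). The remaining gene includes introns.

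That ratio was higher in each longer class of genes. It was 2.03 ± 0.102 in genes of 5 to 10 kb, 2.98 ± 0.197 at 10 to 20 kb, 4.42 ± 0.319 at 20 to 50 kb, 6.84 ± 0.361 at 50 to 100 kb and 13.3 ± 1.59 at 100 kb or more (SD, n = 3). The density in the last kilobase itself was 0.471 ± 0.0474 peaks per kb in the shortest class and 0.161 ± 0.0206 in the longest. In the remaining gene it was 0.231 ± 0.0119 and 0.0122 ± 0.00199. A 3'-end peak was present in 54.0% of the 359 genes of 5 to 10 kb with any peak and in 23.5% of the 1490 genes of 100 kb or more. Classes of length were not tested against each other.

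Within the last kilobase the peaks were spread nearly evenly, with fewer at the very end. The median distance from centre to gene end was 503.5, 493 and 499.5 bp in replicates 1, 2 and 3, and the last 500 bp held 50.1% ± 0.545 of the peaks (SD, n = 3). The last 100 bp held 91, 88 and 97 peaks, which was 6.07% ± 0.321 of them. Each of the other 100 bp bins inside the kilobase held between 143 and 176 on average, and in no replicate did one of them fall to the count of the last 100 bp. Distance was taken from the peak centre, and the median width was 68, 69 and 70 nt in replicates 1, 2 and 3. The centre of a peak lying wholly inside the gene is set back from the end by part of its width. The share of this in the lower count of the last 100 bp was not tested. Peaks in the last 100 bp also had a lower mean read number, 5.27 ± 0.269, than those at 100 to 200 bp, 5.88 ± 0.225, or at 500 to 600 bp, 7.20 ± 0.471. Past the end of the gene to which the list assigned them lay 9, 5 and 18 peaks, which are not members. Of these, 1, 2 and 4 were within 1000 bp of the end. Their number is limited by the rule that a gene had to hold at least 90% of the peak centres of its ID.

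**Figure D2:**
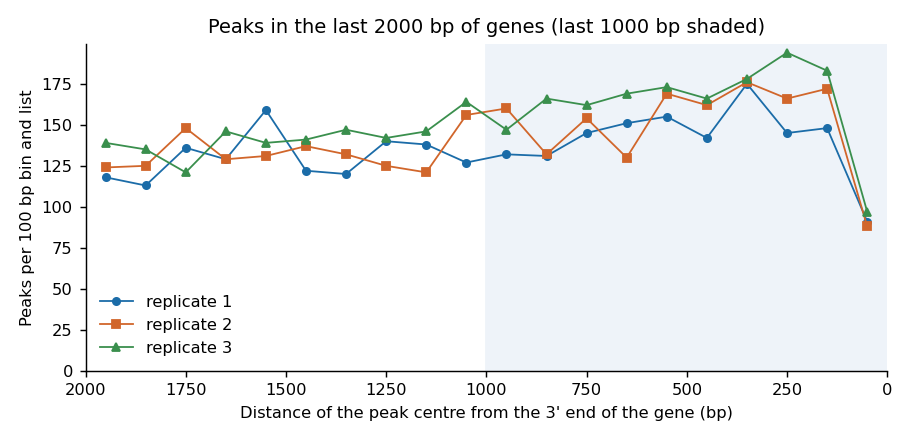
Peaks per 100 bp bin in the last 2000 bp of genes, by distance of the peak centre from the 3' end, with 1 line per replicate and the last 1000 bp shaded. The last bin holds 91, 88 and 97 peaks, fewer than any other bin shown. Centres of peaks lying wholly inside the gene are set back from the end by part of the peak width.

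The peaks were short and mostly low. Their median width was 68, 69 and 70 nt in replicates 1, 2 and 3, from 1 nt to 279, 305 and 313 nt. The median read number was 4 in each replicate, and 33.6% ± 0.629 of the peaks stood at the minimum of 3 (SD, n = 3). A read number of 20 or more was reached by 58, 50 and 61 peaks, and the highest values were 95, 100 and 79. Peaks that lay directly next to another in the same list, without a gap, numbered 26 in each replicate. Overlap within a list was not counted.

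Peaks at 3' ends were wider than the other peaks of the same genes in each replicate. The other peaks had a median width of 59.7 nt, and the difference was 9, 10 and 9 nt in the 3 replicates (exact permutation p = 0.25, two-sided, the smallest possible). Among peaks with a read number of 3 the medians were 58.3 and 53.7 nt, and among peaks of 20 or more they were 118.5 and 97.2 nt. The 3'-end peaks were wider in 3 of 3 replicates in each of the 5 read-number classes. Set against peaks 1000 to 2000 bp from the end, the difference was smaller, at 2, 3 and 3 nt. Peaks of genes without a 3'-end peak had a median width of 64.3 nt. For read numbers of 3, 4 to 5 and 6 to 9 it was 58.0, 74.0 and 81.5 nt, against 58.3, 70.7 and 80.0 nt at 3' ends. For 10 to 19 and 20 or more it was 83.3 and 100.8 nt, against 92.3 and 118.5 nt. Greater width at lower read numbers was thus not particular to 3' ends.

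Recurrence was also higher at 3' ends than among the other peaks of the same genes in each replicate. Peaks of the 3 lists that overlapped by at least 1 bp on 1 strand were joined into regions, and 25.3%, 24.1% and 21.9% of the 3'-end peaks of replicates 1, 2 and 3 lay in a region with a peak of every replicate. The share among the other peaks was 16.1%, and the difference was 7.68 ± 1.15 percentage points, higher in 3 of 3 replicates (exact permutation p = 0.25, two-sided). Recurrence was higher in classes of higher read number. It was 4.79% against 3.80% for a read number of 3, 33.4% against 23.1% for 6 to 9, and 94.3% against 85.9% for 20 or more, with the 3'-end peaks higher in 3 of 3 replicates in each class.

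Against peaks in the neighbouring kilobases the difference was smaller. Peaks at 1000 to 2000 bp from the end recurred in 20.4% ± 0.871 of cases, 3.38 ± 0.953 points below the 3'-end peaks and lower in 3 of 3 replicates (SD, n = 3). Peaks at 2000 to 3000 bp recurred in 23.1% ± 0.779, and there the 3'-end peaks were higher in 2 of 3 replicates, by 0.684 ± 0.943 points (exact permutation p = 0.5, two-sided). The mean read number was 6.44 ± 0.0849 at 3' ends, 6.74 ± 0.0233 at 1000 to 2000 bp and 7.38 ± 0.0883 at 2000 to 3000 bp. It was lower at 3' ends than in either window in 3 of 3 replicates.

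**Figure D3:**
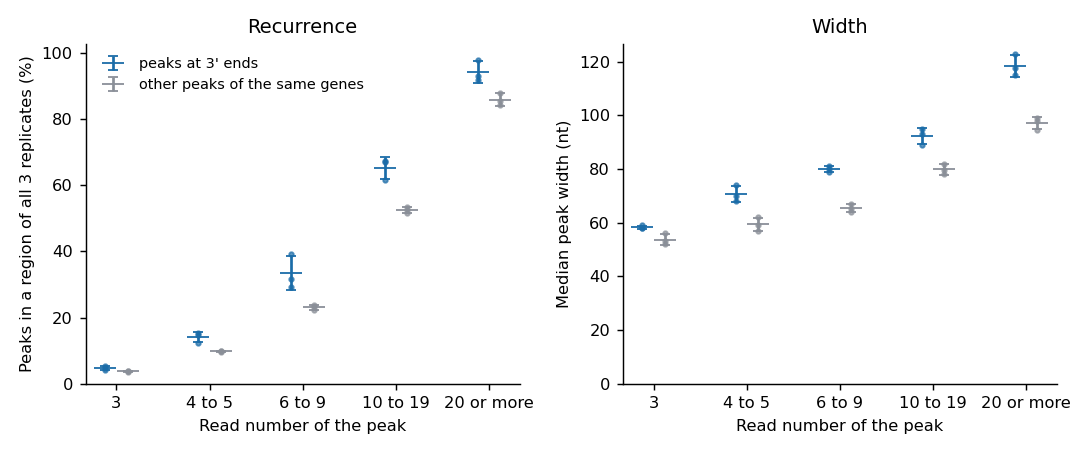
Share of peaks in a region found in all 3 replicates (left) and median peak width (right) by read number, for 3'-end peaks and for the other peaks of the same genes. Points are replicates, horizontal bars means and vertical bars the SD (n = 3). The 3'-end peaks sit higher than the other peaks of the same genes in every class of both panels. Peaks of genes without a 3'-end peak are not shown.

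At least 1 3'-end peak was found in 1978 of 5432 genes with a peak (36.4%). Of these genes, 461 had one in all 3 lists, 539 in 2 lists and 978 in 1 list. The exact same interval was present in more than 1 list for 3 peaks and in all 3 lists for 0, so recurrence rests on overlap. The peaks fell into 3276 regions, of which 2423 came from 1 replicate, 527 from 2 and 326 from all 3. The 326 regions were 9.95% of those with a 3'-end peak. Among regions of the same class of genes without a 3'-end peak, 5.40% held a peak of every replicate.

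The 326 regions lay in 288 genes, 5.30% of the genes with a peak. Of those genes 252 had 1 such region, 34 had 2 and 2 had 3. The regions had a median distance of 508.5 bp from the gene end, a median width of 128 nt once joined, and a median read number of 9 with a range of 3 to 75. In 29 regions the read number was 20 or more in each replicate, in 94 it was 10 or more in each, and in 123 it was below 10 in each. Summed over the regions, the highest read numbers came to 3890, 3867 and 3972 in replicates 1, 2 and 3. The highest value of a region was in replicate 1, 2 or 3 in 111, 105 and 110 regions, with ties given to the lower-numbered replicate. Across the regions the read numbers of replicates 1 and 2 had a Spearman correlation of 0.776, those of 1 and 3 of 0.726 and those of 2 and 3 of 0.689. Regions share their libraries and are not independent replicates, so this is a description. The highest value of a region was at most 2 times the lowest in 253 regions and more than 3 times in 13. In RefSeq, 38 of the regions also overlap another gene on either strand, which was a lncRNA for 19 and a protein-coding gene for 20, and a snoRNA, miRNA or tRNA for 0.

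**Figure D4:**
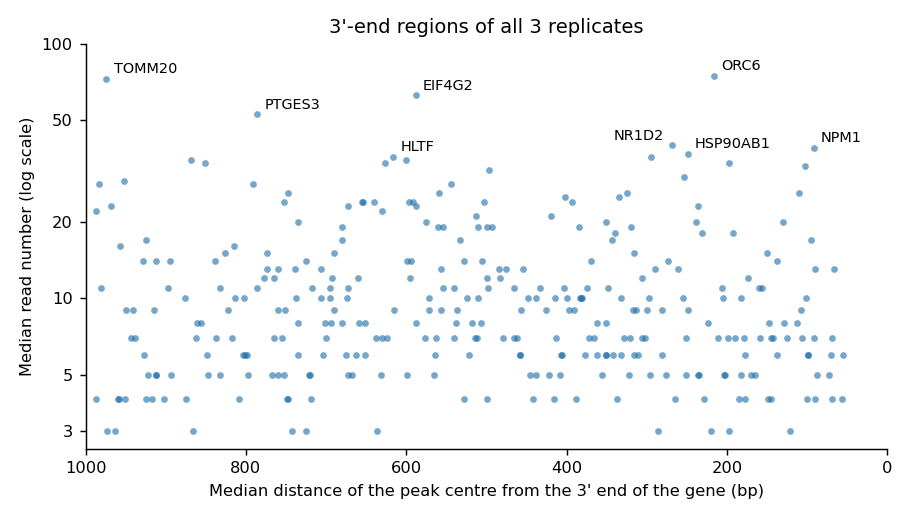
The 326 3'-end regions found in all 3 replicates, by median distance of the peak centre from the gene end and median over replicates of the highest read number (log scale). The 8 highest regions carry the name of their gene (IARS2, unnamed, ties with HLTF). They lie between 91.5 bp (NPM1) and 974 bp (TOMM20) from the end, so high values are not gathered at one distance.

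ORC6, a subunit of the origin recognition complex that marks where DNA replication starts, had the highest 3'-end region. Its read numbers were 75, 100 and 55 in replicates 1, 2 and 3, at chr16:46698114-46698245 on the plus strand, 216.5 bp from the end. Every peak of ORC6 in the 3 lists lay in the last kilobase. TOMM20, a receptor of the mitochondrial outer membrane for imported proteins, had 95, 49 and 73 at chr1:235110189-235110467, 974 bp from the end and so close to the limit of the window. EIF4G2, an eIF4G relative that lacks the part binding the cap-binding factor, had 63, 60 and 79 at chr11:10797545-10797740, 588 bp from the end. These ranges overlap, so no order among the 3 genes holds beyond the spread of the replicates. PTGES3, the p23 co-chaperone of HSP90, followed with 53, 62 and 43 at chr12:56664046-56664223.

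The next genes formed a group whose values also overlapped. NR1D2, a nuclear receptor of the circadian clock, had 40, 26 and 49. HSP90AB1, the constitutive cytosolic HSP90, had 37, 43 and 24. IARS2, the mitochondrial isoleucyl-tRNA synthetase, had 49, 36 and 36. The lowest replicate differed from gene to gene: it was replicate 2 in NR1D2 and replicate 3 in HSP90AB1. HSPA13, a microsomal member of the HSP70 family, had 35, 27 and 35. USP14, a deubiquitinating enzyme of the proteasome, had 34, 21 and 45. RPL26, a protein of the large ribosomal subunit, had 32, 33 and 37 in a region 102 bp from the end, among the most even of the 20 highest. DSG2, a desmosomal cadherin, had 30, 32 and 45, and its region also lies within DSG2-AS1, a lncRNA gene. RBMX, an hnRNP-type splicing regulator also known as hnRNP G, had 36, 30 and 20. PGRMC1, a heme-binding membrane protein, had 36, 35 and 15, and its low value came from replicate 3, where the peak was 74 nt wide against 115 and 147 nt in the others.

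**Figure D5:**
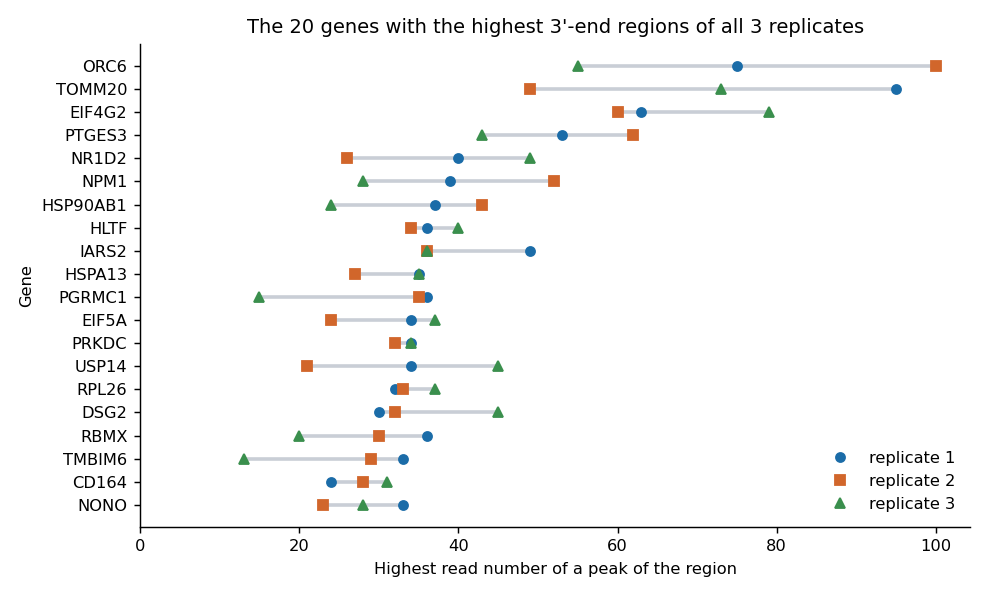
The 20 genes with the highest 3'-end regions found in all 3 replicates. Points give the highest read number of a peak of the region in each replicate and lines the range. ORC6, TOMM20 and EIF4G2 reach the highest values, and the ranges of neighbouring genes overlap.

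Several genes carried more than 1 recurring region in the last kilobase. EIF5A, the hypusine-bearing translation factor, had 3: the nearest to the end with 34, 24 and 37 reads in replicates 1, 2 and 3, the next with 13, 12 and 16, and the farthest with 14, 17 and 9. Its 3'-end peaks held 74.0% ± 16.3 of the read number of the gene (SD, n = 3). PTMA, which encodes the small acidic nuclear protein prothymosin alpha, also had 3, with 32, 24 and 21, with 20, 14 and 22, and with 20, 12 and 24. In PTMA they held only 26.6% ± 2.54 of the read number of the gene, and its highest peak elsewhere had 75, 58 and 59. The 36 genes with more than 1 region had gaps of 17 to 590 nt between neighbouring regions, with a median of 199.5 nt over 38 gaps.

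Among genes with 2 regions, NPM1, a nucleolar histone chaperone, had 39, 52 and 28 in a region 91.5 bp from the end and 23, 18 and 9 in one 339 bp from it. HLTF, a DNA translocase and ubiquitin ligase of stalled replication forks, had 36, 34 and 40 and, closer to the end, 13, 13 and 15. Both HLTF regions lie where GYG1, another protein-coding gene, overlaps it. PRKDC, the catalytic subunit of the DNA-dependent protein kinase, had 34, 32 and 34 and also 20, 39 and 26, and the latter pair of values overlaps the former. TMBIM6, an endoplasmic reticulum membrane protein that limits cell death, had 33, 29 and 13 far from the end and 39, 21 and 21 nearer to it. CD164, a membrane sialomucin, had 24, 28 and 31 and also 9, 8 and 11. NONO, a paraspeckle protein that binds RNA, had 33, 23 and 28 at 983 bp and 24, 15 and 27 at 502.5 bp.

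In the 288 genes the last kilobase held a varying part of the signal. The median share of the read number of a gene in its 3'-end peaks was 41.8%, with quartiles of 26.5% and 63.8%. The highest peak of the gene was at the 3' end in all 3 replicates in 116 genes and elsewhere in all 3 in 34, and it was mixed or tied in 138. TOMM20 had 95, 49 and 73 at the 3' end and 56, 39 and 44 at its highest peak elsewhere. In HSP90AB1 the order was the other way, with 59, 58 and 59 elsewhere. The 288 genes had a median length of 31007.5 bp, against 50652 bp for all genes with a peak.

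Every peak lay at the 3' end in 249 genes, of which 171 had 1 peak in all and 15 had a region of all 3 replicates. The highest of these 15, after ORC6, were LAMTOR5, POLR1E, STEEP1, GTF2E1 and TADA1. LAMTOR5, a subunit of the Ragulator complex on lysosomes, had 8, 12 and 11. POLR1E, a subunit of RNA polymerase I, had 9, 10 and 14. STEEP1, an adaptor in STING trafficking, had 11, 10 and 6. GTF2E1, a subunit of the general transcription factor TFIIE, had 7, 8 and 7, and TADA1, a subunit of the SAGA complex, had 9, 7 and 5. All of these were below the read numbers of ORC6, and GTF2E1 and TADA1 each had 1 peak per list.

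Most genes for hnRNP proteins, the family of HNRNPA0, that had a peak had one at the 3' end. Of 22 genes for hnRNP proteins with a peak, 18 had a 3'-end peak and 6 a region of all 3 replicates, beside 36.4% and 5.30% of all genes with a peak. No list was tested against that background. HNRNPK, a KH-domain protein that binds C-rich RNA, had 22, 25 and 27. HNRNPH1, which binds G-rich RNA, had 24, 24 and 29 and also 12, 11 and 9, in places that a lncRNA gene overlaps. HNRNPH2, its close relative, had 13, 24 and 10, in a stretch shared with the readthrough gene RPL36A-HNRNPH2. HNRNPU, a nuclear scaffold protein, had 14, 11 and 9. PTBP1 and HNRNPL completed the 6, while HNRNPA1, HNRNPC and HNRNPM were among those whose 3'-end peaks did not recur in all 3. RBMX, described above as hnRNP G, was not on the list, although it had a region of all 3 with 36, 30 and 20. HNRNPH1 and HNRNPH2 are similar in sequence, and how reads that match both were placed is not given in the sources used here.

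HNRNPA0, the gene targeted by the vector, had no 3'-end peak in any list. Its peaks numbered 5, 8 and 6 in replicates 1, 2 and 3 and lay 6824 to 8349 bp from its 3' end, with highest read numbers of 112, 64 and 110. Transcripts of the vector and of the gene cannot be told apart in these lists.

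Genes for factors of RNA processing and 3' end biology had a 3'-end peak at shares near that of all genes with a peak. The shares were 41.2% for 3' end processing, 42.1% for proteins that bind AU-rich elements, 38.5% for G-quadruplex proteins and 46.2% for SR splicing factors, beside 36.4%. Their shares with a region of all 3 replicates were 17.6%, 5.26%, 19.2% and 7.69%, beside 5.30%. Of 17 genes for 3' end processing and polyadenylation with a peak, 7 had a 3'-end peak and 3 a region of all 3 replicates. PABPC1, the cytoplasmic poly(A)-binding protein, had 26, 20 and 19. NUDT21, a subunit of cleavage factor I, had 15, 12 and 15. PAPOLA, the poly(A) polymerase, had 4, 4 and 8, and its region was lost when only the 50% of peaks with the lowest p-values were kept. Of 19 genes for proteins that bind AU-rich elements and 3' untranslated regions, 8 had a 3'-end peak and 1 a region of all 3, IGF2BP1, which stabilises bound messages, with 16, 14 and 15. Of 26 genes for proteins that bind or unwind G-quadruplexes, folds of guanine-rich RNA or DNA, 10 had a 3'-end peak and 5 a region of all 3. Among these DDX21, a nucleolar RNA helicase, had 34, 26 and 19, while its highest peak elsewhere had 78, 70 and 99. Of 13 genes for SR splicing factors, 6 had a 3'-end peak and 1, SRSF9, a region of all 3, with 7, 5 and 4.

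Genes for translation factors had a 3'-end peak at 37.5%, near the 36.4% of all genes with a peak, and a region of all 3 replicates at 31.2%, beside 5.30%. Of 32 genes for initiation and elongation factors with a peak, 12 had a 3'-end peak and 10 a region of all 3 replicates. Beside EIF4G2 and EIF5A, EIF1AX, which acts in start codon scanning, had 12, 13 and 14, and EIF4A1, the helicase of the cap-binding complex, had 15, 11 and 12. The remaining ones were EIF4B, EIF4A2, EIF3E, EIF4G1, EIF4H and EEF1G. Of 41 genes for cytoplasmic ribosomal proteins of at least 5 kb, all with a peak, 20 (48.8%) had a 3'-end peak and 6 (14.6%) a region of all 3. RPL5 had 13, 18 and 14 in a place that DIPK1A overlaps, RACK1, a scaffold on the small subunit, had 12, 8 and 11, and RPS3A had 9, 9 and 11. The rest of that list of 80 genes are shorter than 5 kb and were outside the rule.

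Genes of housekeeping functions differed from list to list, without a test. Over all genes with a peak, 36.4% had a 3'-end peak and 5.30% a region of all 3 replicates. Proteasome and respiratory chain genes had 3'-end peaks at shares near that 36.4%. Of 11 genes for cytoskeleton and glycolysis with a peak, 9 (81.8%) had a 3'-end peak and 5 (45.5%) a region of all 3 replicates. TUBB, a beta-tubulin, had 33, 24 and 17. LDHB and LDHA, the subunits of lactate dehydrogenase, had 23, 26 and 16 and 22, 11 and 14. VIM, the intermediate filament vimentin, had 7, 10 and 15. Of 21 listed genes for chaperones, 10 (47.6%) had a 3'-end peak and 2 (9.52%) a region of all 3, HSP90AB1 and HSP90B1. The latter, an HSP90 of the endoplasmic reticulum, had 17, 10 and 10. PTGES3 and HSPA13, described above, also had a region of all 3 but were not on that list. Of 19 listed proteasome genes 7 (36.8%) had a 3'-end peak and 0 a region of all 3, with 2 in at least 2 replicates. That list did not hold USP14 or PSME3, the proteasome enzyme and activator named elsewhere here, which each had a region of all 3. Of 17 genes for nuclear-encoded subunits of the respiratory chain 6 (35.3%) had a 3'-end peak and 1 (5.88%) a region of all 3, SDHD, a membrane anchor of complex II, with 3, 5 and 6.

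Genes for chromatin, replication and nuclear transport had shares above those of all genes with a peak, without a test. Of 26 genes for histone chaperones and chromatin proteins 20 had a 3'-end peak, of 21 for DNA replication and the cell cycle 14 did, and of 20 for nuclear transport 15 did, which is 76.9%, 66.7% and 75% beside 36.4% of all genes with a peak. A region of all 3 replicates was found for 4, 4 and 3 of them, or 15.4%, 19% and 15% beside 5.30%. These counts cover the listed genes only. ORC6 and the pore membrane protein NDC1, each with a region of all 3, were not on the replication and transport lists. ANP32B, an acidic histone chaperone, had 9, 11 and 5, CBX1, a heterochromatin protein, had 5, 7 and 8, and ASF1B, a chaperone of H3 and H4, had 8, 6 and 6. MCM4, of the replicative helicase, had 14, 11 and 12, CDK1, the mitotic kinase, had 9, 8 and 10, and CENPF, a kinetochore protein, had 7, 6 and 5. NUP153, of the nuclear pore basket, had 21, 24 and 26, RAN, the GTPase that drives transport, had 8, 10 and 8, and XPO1, the main export receptor, had 8, 7 and 5. Among the genes whose values are given in this paragraph for these lists, NUP153 was the highest in each replicate. NPM1, also counted among the chromatin genes, was higher still, with 39, 52 and 28.

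Of 23 genes listed for short-lived AU-rich messages, 11 were of at least 5 kb and only 4 had a peak. Each of the 4 had a 3'-end peak and 1 a region of all 3 replicates. Over all genes with a peak these shares were 36.4% and 5.30%, and 4 genes are too few to compare with them. The gene with the recurring region was MCL1, with 16, 19 and 24 in a region 385 bp from its end. That region is apart from the peaks whose sequence is shown above. For ubiquitin and signalling regulators, 11 of 18 genes with a peak (61.1%) had a 3'-end peak, beside the same 36.4%. A region of all 3 replicates was found in 5 (27.8%), beside 5.30%, without a test. YWHAE, a 14-3-3 protein, had 19, 10 and 26, and UBE2K, a ubiquitin-conjugating enzyme, had 17, 26 and 18. CALM2, a calmodulin gene, had 15, 11 and 8, and RAC1, a small GTPase, had 10, 5 and 14. Of 15 genes of at least 5 kb that mark tissues other than the kidney line, such as liver, muscle and blood, 0 had a peak of any kind in these lists.

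The limit of the window ran through the peaks of some regions. The regions with centres nearest to the end were in IREB2, an iron-responsive RNA-binding protein, with 6, 3 and 10 at 55.0 bp, CNOT6L, a deadenylase, with 4, 5 and 3 at 56.5 bp, and NDC1, a pore membrane protein, with 16, 13 and 11 at 66.0 bp. Just inside 1000 bp lay ATP6AP2, an accessory protein of the vacuolar proton pump, with 9, 22 and 22 at 987.5 bp, and ALDH18A1, an enzyme of proline synthesis, with 3, 4 and 4 at 986.5 bp, next to the NONO region at 983 bp. Just outside lay a region of HSP90B1 with 10, 8 and 8 at 1002 bp, STX12, a SNARE of endosomes, with 13, 10 and 17 at 1012.5 bp, and ATP6V1G1, a subunit of the proton pump, with 6, 11 and 17 at 1014.5 bp. In HSP90B1 and ATP6V1G1 the centre of 1 replicate, at 998.5 and 968 bp, lay inside the window, so the limit divided peaks of 1 region.

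The widest recurring regions were joined from peaks that differed in extent or position. ANXA5, a calcium-dependent phospholipid-binding protein, had a region of 412 nt made of peaks of 80, 165 and 237 nt with read numbers of 4, 9 and 9. ARF1, a GTPase of Golgi traffic, had 362 nt with 32, 19 and 19, and PSME3, a proteasome activator, 331 nt with 22, 24 and 23. RTN4, a reticulon of the endoplasmic reticulum, had 319 nt with 8, 12 and 10. IARS2 and RRM1, the large subunit of ribonucleotide reductase, both had 313 nt, and in RRM1 the read numbers were 6, 11 and 19 for peaks of 39, 109 and 313 nt. The regions of ANXA5, RTN4 and RRM1 were lost when overlap had to cover 50% of both peaks.

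Some high 3'-end peaks were seen in 1 replicate only. NUCKS1, a nuclear DNA-binding protein, had a peak of 50 reads in replicate 1 that was 35 nt wide, and the nearest peaks of that gene in the 3 lists were 303 to 331 nt away. SCD, the stearoyl-CoA desaturase, had one of 25 in replicate 1, with no peak of the gene closer than 589 nt. ARCN1, a coatomer subunit, had one of 18 in replicate 3, and DDX21 one of 19 in replicate 1, of which the nearest peak in replicate 3 was 19 nt away. NONO had one of 21 in replicate 3 that touched a peak of 27 reads in the same list, which belongs to its recurring region. In NUCKS1 and SCD the highest peaks lay elsewhere in the gene, with 168, 163 and 172 and with 59, 107 and 84.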

How the data were processed

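Per the labels' protocols, 3 replicates of easyCLIP on HA-tagged HNRNPA0 were sequenced as paired 150 bp reads with a target of about 30 M reads each, after capture of the RNA on oligo(dT) beads through the adapter. The authors deposited 1 peak list per replicate on hg38, so peaks were called per sample. Each deposited line gives an interval, a strand, a p-value from the authors' peak caller, a short marked stretch and a name whose last number was read as a read number. Every deposited p-value was below 0.05. The submitters' processing notes name bedtools and deepTools with no version. The aligner, the caller and the handling of molecular identifiers are not given in the sources used here. Library depth outside peaks was not analysed, so no counting interval is given.

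Lines with the same interval and strand were counted once. A gene ID was tied to the RefSeq protein-coding gene that held at least 90% of its peak centres on the same strand: of 6566 IDs on these chromosomes, 6026 were tied to 1 gene, 42 to several, and 451 to none, and 47 lay on the other strand. The strand came from the RefSeq promoter table where it lists the gene (273 of the 326 regions) and otherwise from the peaks of the gene ID. Of 4943 single-gene IDs with a listed strand, 99.1% lay on it. Readthrough genes and unnamed loci were set aside only where another gene also held the ID, so 2 of the regions are counted under TPTEP2-CSNK1E and HOXA10-HOXA9, named after the data were seen. Python 3.11.15, pandas 2.3.3, NumPy 2.4.6 and SciPy 1.17.1 were used, and the region and annotation steps were tested on simulated data. Replicates were compared by an exact permutation test with paired sign flips. The alternatives were the window, the p-value and read minimum, overlap, peak point, gene length, chromosome X, touching peaks and each replicate left out. Motif counts around the regions needed a genome sequence and were not analysed here.

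Genes were named by rule: the 20 with the highest recurring region, the 8 with the most, up to 4 per gene list, those nearest to the end and to the limit of 1000 bp, the 6 highest seen in 1 replicate only (1 of them is not reported here), the 6 widest, HNRNPA0, and the 6 highest with every peak at the end. PRC1 was named for its sequence, and the further list members without values were named after the data were seen. The peaks, gene lists and rules were chosen with earlier results of these data known. The gene lists do not hold every gene of a function, so counts per list describe the listed genes only.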

Additional observations from a re-analysis of the deposited data

How the results depend on the processing

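The excess of recurrence, the only recomputed main result with a direction, stayed positive under every alternative tried. Differences in width, density, mean read number and peak counts between windows were not recomputed. Of the recomputed values of the main results, 82 stayed within the spread of the replicates or within 1.5 times of the count, and 35 moved. The 82 include values that a setting could not move, such as the share of peaks at 3' ends under the overlap alternative. The share of peaks at 3' ends, the number per list, the regions and genes of all 3 replicates, the median distance and the share of read numbers became 5.10%, 761, 154, 147, 273.5 bp and 5.63% with the last 500 bp, and 19.2%, 2870, 585, 482, 942 bp and 22.4% with the last 2000 bp, where the median width was 68.0 nt. With only the 50% of peaks of lowest p-value in each list, the share was 12.3%, the number 918, the recurrence 32.0%, the distance 508 bp, the width 80.0 nt and the share of read numbers 12.9%. With a read number of 5 or more these were 13.2%, 722, 35.8%, 509.7 bp, 84.7 nt and 13.4%. Overlap of 50% of both peaks left 207 regions and a recurrence of 13.9%. Genes of 10 kb or more gave 9.49%, 504 bp and 10.8%. Without 1 replicate in turn, where a region needs the 2 others, the regions numbered 480 to 520, the genes 408 to 452 and the recurrence was 33.5% to 35.1%; the largest counts, 520 and 452, came without replicate 1. The excess of recurrence over other peaks of the same genes stayed between 4.83 and 8.71 points. Of the named genes, ALDH18A1, CNOT6L, IREB2, PAPOLA and SDHD lost their region with the stricter p-value, and ALDH18A1, ANXA5, CALM2, EIF1AX, HNRNPU, IGF2BP1, IREB2, LDHB, MCL1, RAC1, RRM1, RTN4 and XPO1 with the stricter overlap. Only genes with a listed strand, an alternative chosen after seeing the data, left 273 regions in 241 genes. The paired tests compare kinds of peak within a replicate, and no fit with replicates as a block across groups could be made because the samples form 1 group. The motif counts were not run. Low read numbers limit recurrence: peaks with a read number of 3 seldom overlapped across lists, so absence from a replicate does not show absence of binding.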
